A study of Mus musculus with 502 samples.

Results

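Olfactory receptor gene clusters were examined as 9 windows of the human genome (build hg38), and their members were the listed silencers whose midpoint fell inside a window. The 9 windows together span 6.95 Mb, which is 0.225% of the 3085.9 Mb taken as the genome. They held 979 of 397136 listed silencers, made up of 337 of 125249 in 293T, 315 of 134159 in K562 and 327 of 137728 in LNCap. A silencer here is a short stretch that the submitters listed as having silencer activity in Ss-STARR-seq, a reporter assay in which sonicated genomic DNA is cloned into a plasmid and compared between the plasmid library (input) and the RNA made from it in transfected cells (output). The 3 lines were 293T, derived from embryonic kidney; K562, a leukaemia line with erythroid features; and LNCap, an androgen-sensitive prostate cancer line.

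The labels name 461 output RNA libraries over the 3 lines and 41 input DNA libraries, of which 1 is from 293T and 40 are from LNCap. The deposit has 1 silencer list per line. No K562 input is among these labels, and no treatment or genotype separates the lines. All 3 lines were grown in DMEM with serum. The protocol adds that cell lines were induced in iCD1 medium, without saying which libraries this covers. With 1 list per line there is no spread between cultures to test against, so values are compared side by side, and every interval below is a 95% interval that covers counting error only. The labels call every library mouse, whereas the lines, the build and the chromosome names are human.

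Olfactory receptors are the odorant-sensing G protein-coupled receptors of the nasal epithelium and form the largest gene family of mammals. They lie in tandem clusters on many chromosomes, and an olfactory neuron expresses a single allele of a single receptor gene while the rest are kept silent, with heterochromatin marks over the clusters. Outside the nose most of these genes are inactive. They divide into class I, found in a single cluster on the short arm of chromosome 11 that is interrupted by the beta-globin genes, and class II, which makes up the clusters elsewhere. In a plasmid assay a fragment is tested away from its own chromosome, so the values describe the fragments and not the chromatin of the clusters.

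Class I was covered by 2 windows on chromosome 11, the first at 4300000 to 5000000 and the second at 5450000 to 6200000. Class II was covered by 7 windows. On chromosome 11 these were the third window at 55800000 to 56800000 and the fourth at 57900000 to 59600000. The others lay on chromosome 1 at 247300000 to 247900000, chromosome 14 at 19600000 to 20300000, chromosome 12 at 55100000 to 55600000, chromosome 9 at 122400000 to 122900000 and chromosome 17 at 3000000 to 3500000. The rule uses position alone and no score. No hg38 gene annotation or sequence was used here, so which receptor gene, exon or intron a silencer falls in was not looked up, and the cluster labels were not checked against genes. Positions are given as deposited, without a stated convention for the first base.

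The windows were neither empty of silencers nor packed with them. In 293T they held 48.5 silencers per Mb (interval 43.4 to 54), against 40.6 per Mb over the whole 293T list. In K562 they held 45.3 per Mb (40.5 to 50.6), against 43.5 over the whole list. In LNCap they held 47.1 per Mb (42.1 to 52.4), against 44.6 over the whole list. The ratio of windows to whole list was thus 1.19 for 293T (1.07 to 1.33), 1.04 for K562 (0.931 to 1.16) and 1.05 for LNCap (0.943 to 1.17). The 293T interval lay above 1, and the K562 and LNCap intervals included 1. The genome length used includes stretches without any listed silencer. With the whole list spread over only the 2816 Mb of 100 kb bins that hold one, the ratios were 1.09, 0.951 and 0.962. No intervals were computed for these. Neighbouring silencers are not independent, so counts can vary more than these intervals allow.

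Set against their immediate neighbourhood, the windows were not denser in any line when all silencers were counted. Flanks as long as each window on either side, outside all windows, cover 11.3 Mb. In 293T the windows held 48.5 silencers per Mb and the flanks 48.7 (interval 44.7 to 52.9), a ratio of 0.996. In K562 the windows held 45.3 per Mb and the flanks 54.8 (50.5 to 59.3), a ratio of 0.827. In LNCap the windows held 47.1 per Mb and the flanks 59.6 (55.1 to 64.2), a ratio of 0.790. For LNCap the intervals of windows and flanks did not overlap, for K562 they overlapped only at their ends, and for 293T they overlapped widely. With scores of at least 2.5 alone, the ratio to the flanks was 1.07 for 293T, 0.974 for K562 and 0.719 for LNCap. The windows were sparser than their own flanks in 5 of 9 cases in 293T, 5 in K562 and 7 in LNCap. Receptor clusters on chromosome 1 and on the long arm of chromosome 11 are known to run on beyond the windows, so some flanks hold receptor genes too. On chromosome 11 the stretch from 5000000 to 5450000, between the class I windows, was also counted as flank, although it lies inside their cluster.

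The flank contrast varied between windows. The chromosome 17 window held 23 silencers for 293T, 27 for K562 and 31 for LNCap, and its density was 0.708, 0.535 and 0.512 of that in its flanks. The chromosome 12 window held 44 per Mb both in K562 and in LNCap, against 75 and 90 in its flanks, but 56 per Mb in 293T, against 42. The chromosome 14 window ran the other way: it held 55.7 per Mb in 293T, 32.9 in K562 and 50 in LNCap, against 17.1, 30.7 and 35 in its flanks. It was the only 1 of the 9 windows above its flanks in all 3 lists, while 3 were below them in all 3. How uniquely reads map in windows and flanks was not examined.

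**Figure D1:**
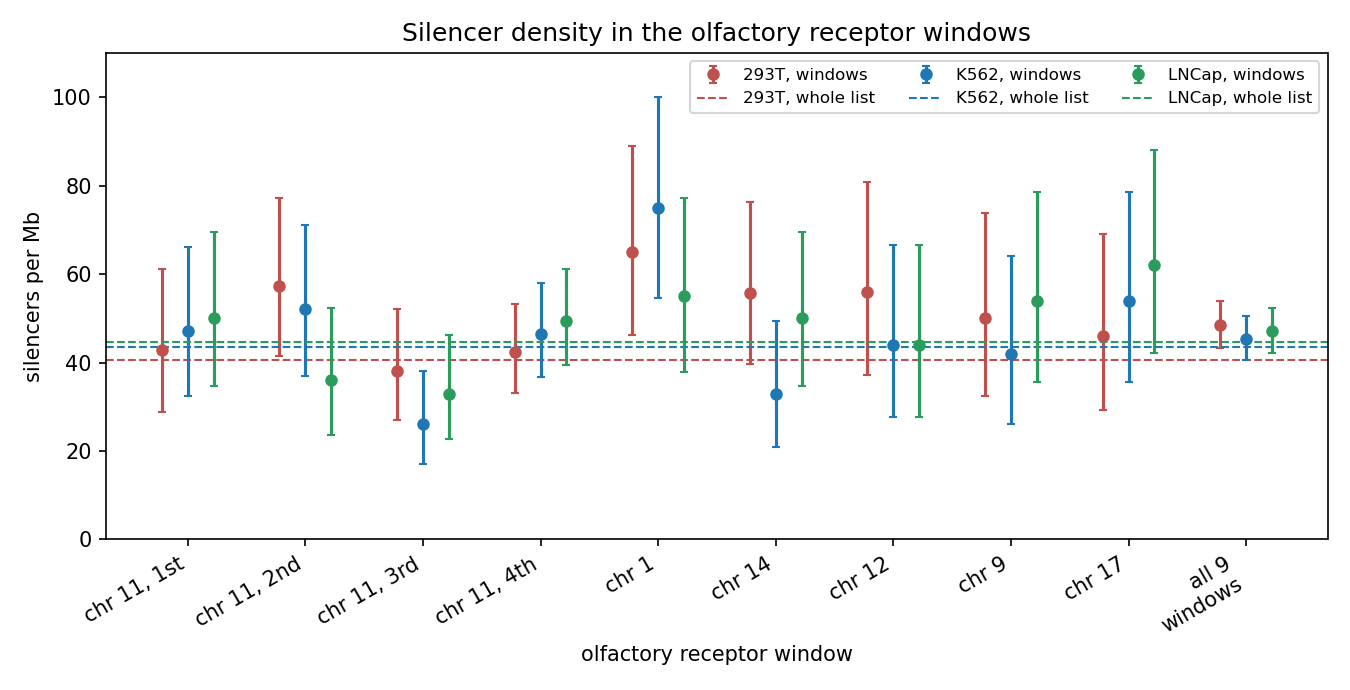
Silencers per Mb (vertical axis) in each window and in all 9 together, for 293T, K562 and LNCap; points are window values with exact 95% Poisson intervals and dashed lines the density of each whole list. The chromosome 1 window is highest in 293T and K562, at 65 and 75 per Mb, and the third chromosome 11 window is lowest in each list, at 38, 26 and 33 per Mb.

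Of the 27 window densities, 4 had an interval that left out the whole-list density. The chromosome 1 window held 39 silencers for 293T, 45 for K562 and 33 for LNCap. Its ratio to the whole list was 1.60 in 293T (interval 1.14 to 2.19) and 1.73 in K562 (1.26 to 2.31), while that in LNCap was 1.23 (0.848 to 1.73). Its flanks were as dense, at 75.8, 75 and 75.8 silencers per Mb, so its ratio to them was 0.857, 1.00 and 0.725. The second chromosome 11 window had a ratio of 1.41 in 293T (1.02 to 1.9). The third chromosome 11 window was the sparse one, with 38 silencers for 293T, 26 for K562 and 33 for LNCap and ratios of 0.936 (0.663 to 1.29), 0.598 (0.391 to 0.876) and 0.739 (0.509 to 1.04).

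In the remaining windows every interval included the density of the whole list. The fourth chromosome 11 window, the longest, held 72 silencers for 293T, 79 for K562 and 84 for LNCap, at ratios of 1.04, 1.07 and 1.11. The first chromosome 11 window held 30, 33 and 35 silencers in the same order of lines, at ratios of 1.06, 1.08 and 1.12. The chromosome 9 window held 25, 21 and 27, and the chromosome 17 window 23, 27 and 31. The chromosome 12 window held 28 in 293T and 22 in each of the other lists. The chromosome 14 counts differed between lines, with 39 silencers for 293T, 23 for K562 and 35 for LNCap, but the intervals of the 3 ratios overlapped: 1.37 (0.976 to 1.88), 0.756 (0.479 to 1.13) and 1.12 (0.780 to 1.56). Above the whole-list density in all 3 lists were 4 windows, and 1 was below it in all 3.

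Densities of class I and class II windows were not separated by their intervals. In 293T class I windows held 50.3 silencers per Mb (interval 39.5 to 63.3) and class II windows 48 (42.4 to 54.2). In K562 the values were 49.7 (38.9 to 62.5) and 44.2 (38.8 to 50.1). In LNCap they were 42.8 (32.8 to 54.8) and 48.2 (42.6 to 54.3). The intervals of the classes overlapped in each line, which does not show that the classes are alike. Between the 2 class I windows the order of lines turned. The second held 43 silencers for 293T, 39 for K562 and 27 for LNCap, whereas the first held 30, 33 and 35. In each of these windows the density intervals of the lists overlapped, so the turn is not separated from counting error. The class I cluster is also home to OR51E2, a receptor known for its expression in prostate, but its position was not looked up. A link between OR51E2 and the LNCap counts was not tested.

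Inside a window the silencers were spread unevenly. The windows contain 69 whole bins of 100 kb, with a median of 13 silencers over the 3 lists and 4 per list. The fullest bin was the last of the fourth chromosome 11 window, from 59500000 to 59600000, with 12 silencers for 293T, 13 for K562 and 20 for LNCap, or 45 in all. Without it, that window would hold 37.5 silencers per Mb in 293T, 41.2 in K562 and 40 in LNCap, each below the whole list. The bin was picked as the fullest, so the density had to fall without it, and no interval was computed for these values. Next came the last bin of the chromosome 17 window (3400000 to 3500000; 11, 7 and 11 silencers) and that of the chromosome 9 window (122800000 to 122900000; 4, 12 and 13), each with 29. All these bins lie at a window's end. The chromosome 14 bin from 19700000 to 19800000 held 25 silencers, of which 15 were for 293T, 6 for K562 and 4 for LNCap. The chromosome 1 bin from 247400000 to 247500000 held 23, with 11, 7 and 5, and the one from 247700000 to 247800000 tied with it at 23, with 7, 9 and 7.

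**Figure D2:**
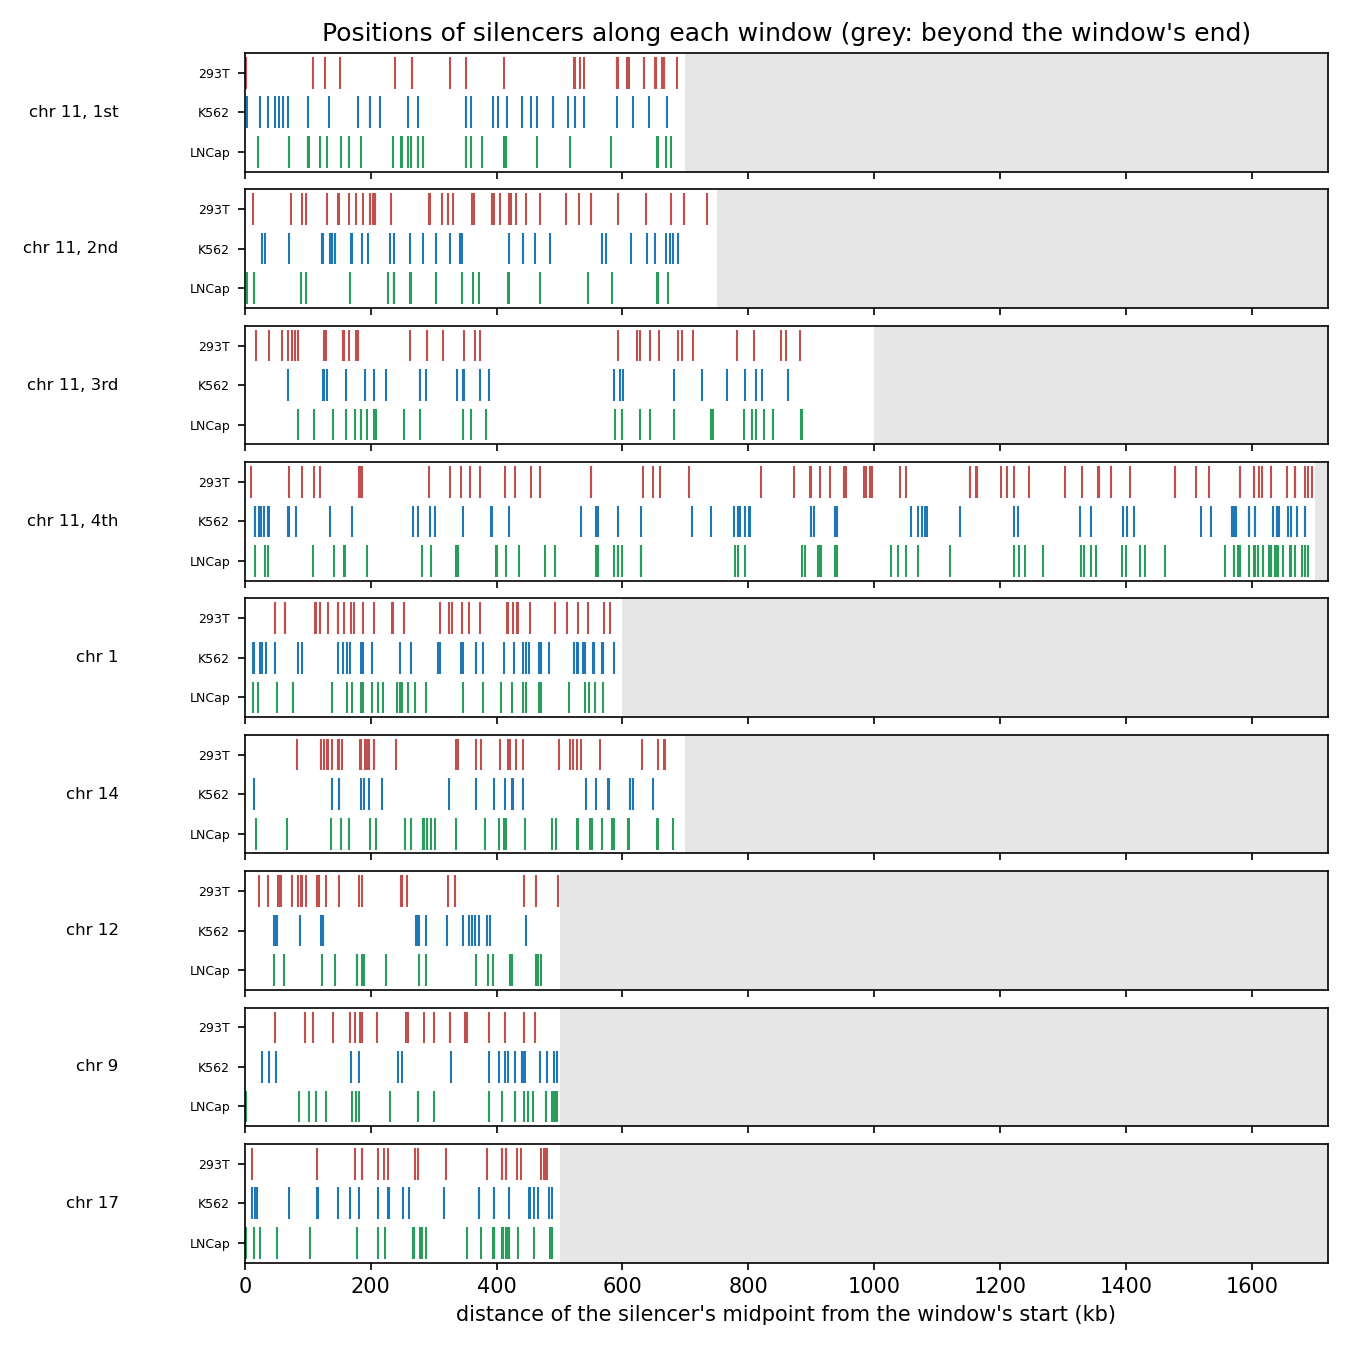
Each tick is a silencer, placed by the distance of its midpoint from the start of its window (kb), with 293T above K562 above LNCap in each of the 9 panels; grey lies beyond the window's end. The third chromosome 11 window shows a stretch near its middle and another at its end with no tick in any list, and ticks crowd at the right end of the fourth.

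The counts of the lists followed each other only loosely along the windows. Over the 69 bins the Spearman correlation was 0.28 between K562 and LNCap counts. With 293T it was 0.19 for K562 counts and 0.27 for LNCap counts. Without the fullest bin the values were 0.25, 0.15 and 0.24. Bins are neighbours on the same chromosomes and hold few silencers each, so these values only describe the windows.

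Only 2 of the 69 bins held no silencer in any list, both in the third chromosome 11 window. They belong to long empty stretches. From 56188401 to 56385829, a length of 197428 bp, none of the 3 lists had a silencer, and 216 of 397112 gaps between neighbours in the joined lists, itself included, are as long. A second stretch ran from 56684432 to the window's end and on to 56873350, a length of 188918 bp that 231 gaps reach. Outside these stretches, which were chosen after their length was seen, the window held 55.3 silencers per Mb for 293T, 37.8 for K562 and 48 for LNCap. The third longest stretch, 72266 bp, lay in the fourth chromosome 11 window from 58094523 to 58166789. Whether reads can be placed uniquely in these stretches, where near-identical receptor genes may lie, was not tested.

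Neighbouring silencers of a list were about as far apart as elsewhere. The median gap inside the windows was 11537 bp in 293T, against 12850 bp over the whole list. It was 11100 bp in K562, against 11477 bp, and 11286 bp in LNCap, against 11000 bp. Gaps of up to 500 bp made up 11.9% in 293T, against 13.8% over the whole list, 13.4% in K562, against 13.3%, and 16% in LNCap, against 14.4%. There were 16 runs of at least 3 silencers joined by such gaps, 5 of them for 293T, 3 for K562 and 8 for LNCap. Runs were not counted over the whole lists, so these numbers have no background here. The longest run was in LNCap on chromosome 17 from 3394951 to 3396151, with 5 silencers scoring 2.2 to 3.3. Further along the same window, 293T and LNCap each had a run of 3, from 3414801 to 3415601 and from 3415201 to 3415851.

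Most members were short, as were most silencers. The median width was 50 bp in each line, both in the windows and over the whole list. Silencers of exactly 50 bp made up 58.2% of members in 293T (interval 52.8 to 63.3), against 64.5% over the whole list, so they were a smaller share there. The share was 58.1% in K562, against 58.7%, and 61.2% in LNCap, against 60.6%. Those over 200 bp made up 4.15%, 7.30% and 5.81% of members, against 4.94%, 6.92% and 6.76%. The members covered 0.410% of the window sequence in 293T, 0.411% in K562 and 0.416% in LNCap, against 0.337%, 0.399% and 0.408% of the genome. The widest member of K562 was 450 bp (chromosome 11, 4324301 to 4324751, score 2.5) and that of LNCap 441 bp (chromosome 1, 247501404 to 247501845, score 2.1). In 293T 2 members of 400 bp were widest, on chromosome 12 (55197501 to 55197901, score 2.5) and chromosome 14 (20099551 to 20099951, score 2.0).

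Higher activity scores made up a somewhat larger share of the members than of each whole list. Activity is the submitters' own score, with 1 decimal and no value under 2. Its scale is not stated, so it only ranks silencers within a list. The median score was 2.3 in the windows of each line, against 2.3 over the whole list in 293T and 2.2 in K562 and LNCap. Scores of at least 2.5 were held by 40.7% of 337 members in 293T (Wilson interval 35.5 to 46), against 36.2% of the list. In K562 they were held by 36.5% of 315 members (31.4 to 42), against 29.1%. In LNCap they were held by 33.9% of 327 members (29 to 39.2), against 31.8%. The K562 interval lay above the share of its list, and the intervals of 293T and LNCap included theirs. In the flanks the shares were 38% for 293T, 31% for K562 and 37.3% for LNCap.

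High scores showed the same direction on small numbers. Scores of at least 4 were held by 15 members in 293T (4.45%, interval 2.72 to 7.21), against 2.71% of the list. They were held by 7 members in K562 (2.22%, 1.08 to 4.52), against 1.56%, and by 9 in LNCap (2.75%, 1.45 to 5.15), against 2.17%. In 293T the interval began barely above the share of the list, and in the other lines it included that share.

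**Figure D3:**
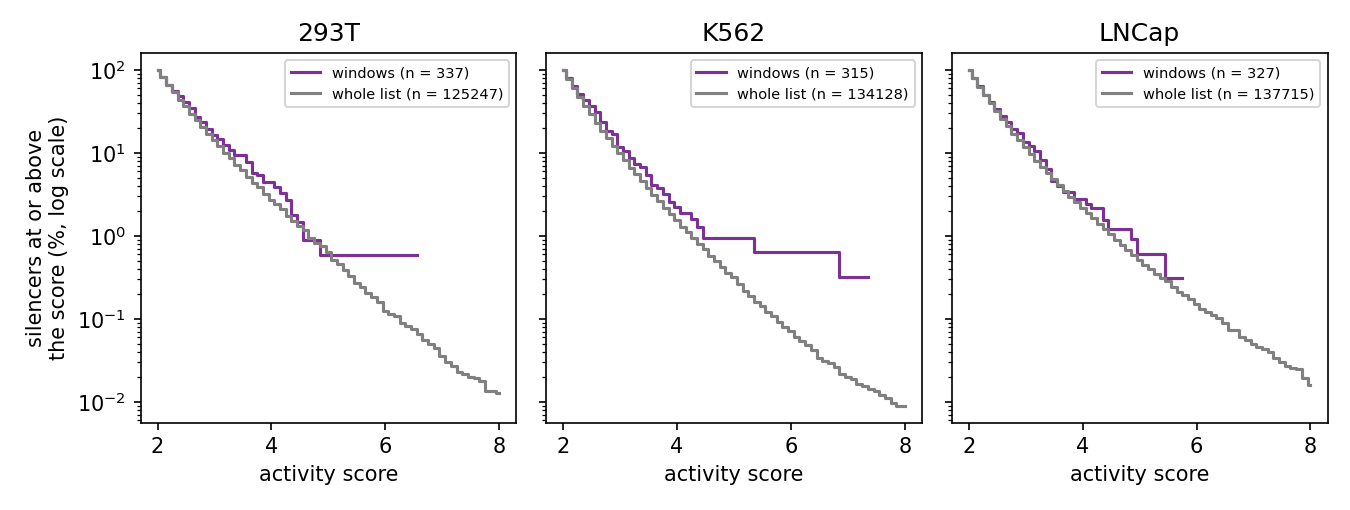
Share of silencers at or above each activity score (vertical axis, log scale, in percent) for the members in the windows and for the whole list, in 293T, K562 and LNCap; infinite scores are left out and the axis stops at 8. At 2.5 the windows stand at 40.7%, 36.5% and 33.9%, against 36.2%, 29.1% and 31.8%, and the steps beyond 5 rest on 1 to 3 silencers per line.

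The highest-scoring members were scattered over the windows. In K562 they were a 50 bp silencer on chromosome 14 (19924251 to 19924301, score 7.3), with 19 finite scores above it in the K562 list, and one on chromosome 1 (247546450 to 247546500, score 6.8), with 29 above it. The chromosome 14 silencer had no other list's silencer within 10 kb. The nearest LNCap silencer lay 10446 bp away and the nearest 293T silencer 10800 bp. The chromosome 1 silencer overlapped no other list, but a LNCap silencer lay 49 bp away. The third was on chromosome 11 (5573000 to 5573101, score 5.3), in the second window, and headed one of the 3 K562 runs.

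In 293T 2 members shared the top score of 6.5, with 83 finite scores above them in the list. One lay on chromosome 11 (59122251 to 59122301), with a LNCap silencer 328 bp away and a K562 silencer 378 bp away. The other lay on chromosome 17 (3415551 to 3415601), 100 bp from a LNCap silencer and at the end of the run described above. The third was on chromosome 12 (55190876 to 55190926, score 4.8). In LNCap the highest was on chromosome 1 (247747350 to 247747400, score 5.7), inside a K562 silencer. Next were chromosome 11 silencers in the second window (5687316 to 5687366, score 5.4), 100 bp from a K562 silencer, and in the first (4401050 to 4401101, score 4.9), 50 bp from one. Within 100 bp of a silencer of the other list lay all 3 top LNCap members and 1 of the 3 top K562 members. By overlap it was 1 and 0. The share within 100 bp was not computed over all members or the whole lists, so these counts have no background here.

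Tops were lower in the other windows. In the first chromosome 11 window the highest score was 4.4 in 293T (4933850 to 4934051) and 3.6 in K562 (4716651 to 4716701). In the second it was 4.1 in 293T (6127801 to 6127851). In the third, the sparse one, no list passed 3.6: the highest were 3.6 in 293T (56423265 to 56423365), 3.5 in K562 (55961050 to 55961101) and 3.4 in LNCap, reached at 56639751 to 56639801 and 56684282 to 56684332. In the fourth, K562 reached 3.4 (57915551 to 57915601) and LNCap 3.6, at 58059801 to 58059851 and 59530150 to 59530201. On chromosome 1, 293T reached 4.5 (247552851 to 247552901). On chromosome 14, 293T and LNCap both reached 4.3 (19755151 to 19755201 and 20187151 to 20187201).

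On chromosome 12, K562 reached 4.4 (55224634 to 55224684) and LNCap 3.2, at 55375801 to 55376151 and 55521651 to 55521701. On chromosome 9, 293T reached 3.5 (122582751 to 122582801) and LNCap 3.3 (122850145 to 122850286). K562 reached 3.8 there, at 122814133 to 122814183 and 122891051 to 122891151. On chromosome 17, K562 reached 3.2 (3459348 to 3459448) and LNCap 3.8 (3223301 to 3223351).

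Sharing between lines was close in the windows to that over the genome. Overlap was counted from 1 bp. Of 315 K562 members, 49 (15.6%, Wilson interval 12 to 20) were met by LNCap, against 15.7% of the K562 list. Of 327 LNCap members, 50 (15.3%, 11.8 to 19.6) overlapped a K562 silencer, against 15.4% of the list. The 293T members shared fewer: 7 of 337 overlapped K562 (2.08%, 1.01 to 4.22), against 3.30%, and 11 overlapped LNCap (3.26%, 1.83 to 5.75), against 3.58%. In the other direction, 7 K562 members (2.22%, 1.08 to 4.52) and 12 LNCap members (3.67%, 2.11 to 6.30) overlapped 293T, against 3.03% and 3.23%. Each of the 6 intervals included the share of its whole list.

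**Figure D4:**
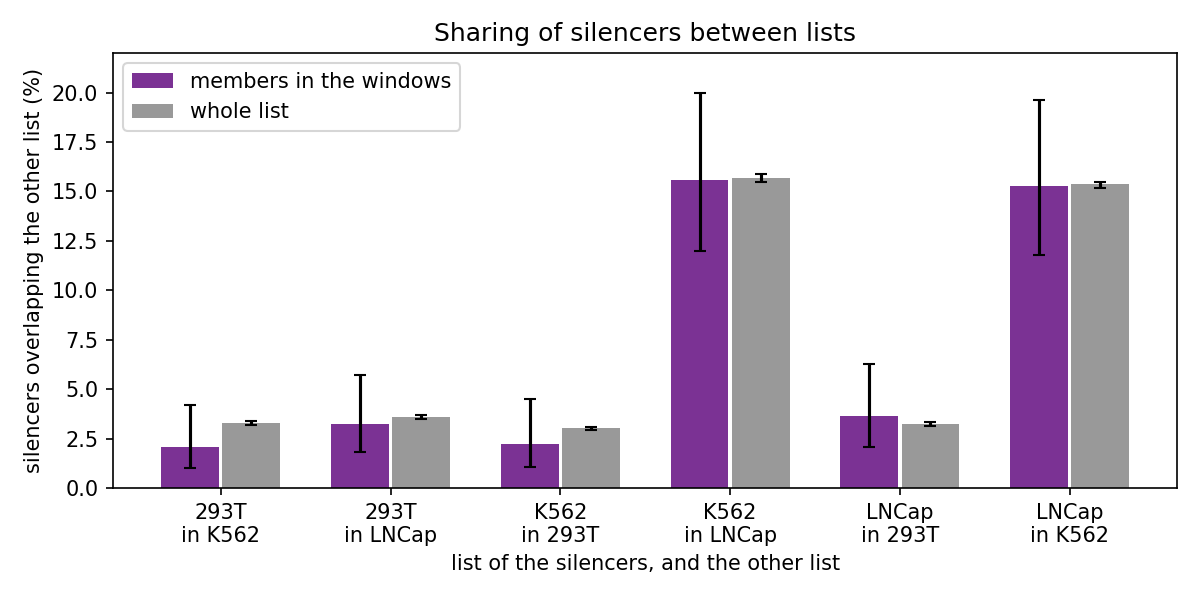
Percent of silencers that overlap a silencer of another list by at least 1 bp (vertical axis), for the members in the windows and the whole list, for each ordered pair of lists; error bars are 95% Wilson intervals. The whole-list bar of each pair lies within the interval of the windows, with K562 and LNCap near 15% and pairs with 293T under 4%.

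Most members were therefore listed in 1 line. Neither other list was met by 322 members of 293T (95.5%, against 93.9% of the list), 263 of K562 (83.5%, against 82.1%) and 269 of LNCap (82.3%, against 82.2%). A silencer missed in another list cannot be told apart from one absent in that line. With overlapping silencers counted too, the nearest LNCap silencer lay within 1 kb of 29.2% of K562 members, against 31.2% of the list. The nearest K562 silencer lay within 1 kb of 13.1% of 293T members, against 14.5%. Near misses without overlap were not counted separately.

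Sharing of K562 with LNCap varied from window to window on small numbers. It was highest on chromosome 1, with 11 of 45 K562 members (24.4%, interval 14.2 to 38.7), against 15.7% of the K562 list. Among LNCap members there it was 11 of 33 (33.3%, 19.8 to 50.4), against 15.4% of the LNCap list. The first and the fourth chromosome 11 window followed, with 7 of 33 K562 members (21.2%) and 16 of 79 (20.3%). It was lowest on chromosome 14, with 1 of 23 K562 members (4.35%, 0.772 to 21) and 1 of 35 LNCap members (2.86%, 0.506 to 14.5), and on chromosome 12, with 1 of 22 in each list. For LNCap members, the intervals of the chromosome 1 and chromosome 14 windows did not overlap, and both left out the share of the list. These windows were picked as the highest and lowest of 9. For K562 members, the interval of every window included the share of the list. In class I windows 10 of 72 K562 members (13.9%) were shared with LNCap, and in class II windows 39 of 243 (16%, with intervals of 7.72 to 23.7 and 12 to 21.2).

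Sharing was also set against score. Of K562 members scoring under 2.3, 19 (12.3%) overlapped LNCap, against 12.9% of the list. From 2.3 to under 3 it was 23 members (18.7%), against 17.9%. At 3 and above it was 7 of 37 (18.9%, interval 9.48 to 34.2), against 23.2%. LNCap members gave 12.3%, 18.3% and 18.2% in K562 over the same classes, against 11.3%, 17.9% and 24.8%. In the top class both intervals include the list value.

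Joining overlapping members of all lists gave 912 places, of which 58 (6.36%, Wilson interval 4.95 to 8.13) held more than 1 list, against 7.10% of 367012 places over the whole lists. K562 and LNCap alone shared 43. With 293T as partner, LNCap alone shared 7 and K562 alone 3. These are 4.71%, 0.768% and 0.329% of the places, against 5.11%, 0.856% and 0.763% over the whole lists. The 3 lists met at 5 places (0.548%, interval 0.234 to 1.28), in 5 different windows, against 0.372% over the whole lists. At 3 of these the lists had bases in common. On chromosome 1, K562 (247487800 to 247487851, score 2.6), LNCap (247487800 to 247487889, score 2.0) and 293T (247487801 to 247487901, score 2.0) had 50 bp in common. In the second chromosome 11 window, LNCap (5869362 to 5869712, score 2.3), K562 (5869387 to 5869537, score 2.6) and 293T (5869401 to 5869501, score 2.6) had 100 bp in common. On chromosome 9, 293T (122788051 to 122788326, score 2.7), LNCap (122788151 to 122788251, score 2.9) and K562 (122788207 to 122788257, score 2.0) had 44 bp in common, and a further LNCap silencer (122788301 to 122788401, score 2.5) overlapped that of 293T.

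The other two places were chains without a common base. In the fourth chromosome 11 window, K562 (59584114 to 59584164, score 2.0) met LNCap (59584151 to 59584251, score 2.4) over 13 bp, and LNCap met 293T (59584201 to 59584401, score 2.3) over 50 bp. On chromosome 14, 293T (19797900 to 19798001, score 2.8) met K562 (19798000 to 19798051, score 2.3) over 1 bp, and K562 met LNCap (19798050 to 19798301, score 2.1) over 1 bp. The length of both these 1 bp contacts depends on how starts and ends are counted. No silencer at the 5 places scored above 2.9. Scores of at least 3 were held by only 16.3% of all members in 293T, 11.7% in K562 and 13.5% in LNCap.

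Of the places held by K562 and LNCap alone, the 3 with the highest summed scores are given with both scores. On chromosome 1 a 300 bp K562 silencer (247747321 to 247747621, score 3.1) contained the top LNCap member, scored 5.7. In the first chromosome 11 window K562 (4574693 to 4574793, score 3.5) contained LNCap (4574694 to 4574744, score 4.0). In the second, LNCap (5753860 to 5754060, score 2.9) contained K562 (5753901 to 5753951, score 4.2). Further along the first window lay 3 more places, picked after their positions were seen: 4650801 to 4650851 and 4658601 to 4658651, where both lists gave identical borders, and 4651001 to 4651151.

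For 293T and LNCap the 3 highest sums lay in the second chromosome 11 window (293T at 5812201 to 5812451, score 3.6, with LNCap at 5812265 to 5812400, score 2.7, and 293T at 5546921 to 5547271, score 2.1, with LNCap at 5547201 to 5547251, score 3.2) and on chromosome 17, in the runs named above (293T at 3415351 to 3415401, score 2.1, with LNCap at 3415351 to 3415451, score 3.1). The 3 places of 293T and K562 lay on chromosome 14 (19739151 to 19739351, scores 3.5 in 293T and 2.1 in K562), chromosome 1 (247447769 to 247447951, scores 2.4 and 2.2) and chromosome 9 (122843558 to 122843681, scores 2.0 and 2.4).

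Where K562 and LNCap silencers overlapped in the windows, their scores were also compared. The 51 overlapping pairs had a median score of 2.4 in both lines. K562 scored higher in 26 pairs, LNCap in 21, and 4 were equal. The Spearman correlation of the scores over these pairs was 0.19, against 0.27 over 22166 pairs of the whole lists with finite scores, and in all these pairs both scores start at 2. K562 scored higher in 51% of the pairs in the windows and LNCap in 41.2%, against 39% and 50.2% over the whole lists. These shares rest on 51 pairs, and no interval was computed. As the scale of the score is not stated, they cannot be read as a difference in activity between the lines. The overlap had a median of 50 bp and ran from 1 to 300 bp. In 5 pairs both borders were identical, and in 8 the start was. Identical borders were not counted over the whole lists, so these counts have no background here.

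**Figure D5:**
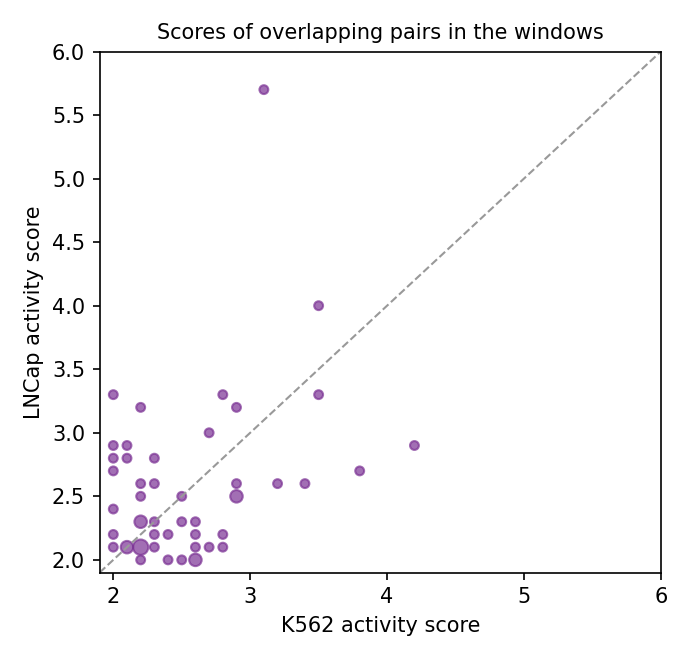
Activity scores of the 51 overlapping pairs in the windows, K562 on the horizontal axis and LNCap on the vertical axis, with larger points where several pairs coincide and a dashed line of equal scores. Most pairs lie under 3 in both lines, and the pair with 3.1 in K562 and 5.7 in LNCap stands farthest from the line.

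Many silencers begin on a regular grid of positions. Starts at 1 past a multiple of 50 bp made up 58.2% of members in 293T, against 53.6% of the list, 49.8% in K562, against 43.3%, and 54.7% in LNCap, against 43.8%. How the submitters tiled the genome is not stated, and the part of this in the counts above was not tested.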

How the data were processed

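Silencers were mapped by Ss-STARR-seq in 293T, K562 and LNCap. The 3 deposited lists give a position and an activity for each silencer, per the file headers. The activity score was deposited by the authors with 1 decimal; how it was computed, which caller and thresholds were used and how libraries were pooled is not given in the sources used here. Bowtie2, SAMtools and build hg38 are named, without versions, in the submitters' processing notes. Depth is unknown, since the lists hold no read counts.

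Garbled lines, chromosome names outside the human set, ranges of no length and ranges wider than 5000 bp were dropped (58 in 293T, 12 in K562 and 25 in LNCap). No member had an infinite score. Chromosome lengths are the highest ends in any list. Members, windows and settings were chosen with earlier results of these lists known. Intervals are exact Poisson for densities and Wilson for shares. No test was run, because each line has 1 list. Members are named by these rules: the 3 highest scores per list, the highest per window, the widest, each place met by 3 lists, the 3 highest summed scores per pair of lists, the 5 fullest 100 kb bins with ties and the 3 longest empty stretches. Alternatives were other overlap rules, score limits, merging within 500 bp, other backgrounds and leaving out each window. The counting and overlap code was tested on simulated data. Gene features, base composition and sequences in hg38 were not analysed here. Work was done in Python 3.11.15 with pandas 2.3.3, numpy 2.4.6 and scipy 1.17.1, and figures in matplotlib 3.10.9.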

Additional observations from a re-analysis of the deposited data

How the results depend on the processing

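Leaving out each window in turn kept the ratio of windows to whole list between 1.16 and 1.24 (293T), 0.978 and 1.12 (K562), and 1.03 and 1.11 (LNCap). Against the whole list per Mb of occupied 100 kb bins, with the windows kept at full length, the ratios were 1.09, 0.951 and 0.962. These values lay inside the intervals given above. Whether the 293T interval would stay above 1 on that background was not computed. With scores of at least 2.5 the ratio to the whole list was 1.34 in 293T and 1.31 in K562, outside their first intervals. Against flanks it was 0.996, 0.827 and 0.790; with both choices, a setting chosen after seeing the data, it was 1.07 (293T), 0.974 (K562) and 0.719 (LNCap). LNCap at that score was 1.13 against the whole list. In K562 and LNCap the side of 1 depends on the background both with all scores and at 2.5. In 293T it does so only with all scores, and there by little. The cause was not tested.

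Shares moved as the overlap rule was widened or tightened. With midpoints within 500 bp they were 8.61% (293T in K562), 8.90% (293T in LNCap), 8.25% (K562 in 293T), 27% (K562 in LNCap), 9.48% (LNCap in 293T) and 26.9% (LNCap in K562); the whole lists gave 10.0%, 10.6%, 9.21%, 27.2%, 9.65% and 27%. Among silencers of exactly 50 bp they were 0 of 196, 0.510%, 0 of 183, 4.37%, 0.500% and 4.00%, against 0.919%, 1.01%, 0.943%, 4.33%, 0.981% and 4.09% of the whole lists. The counts of 0 allow up to 1.53% and 1.64% by the limit of 3 counts, and up to 1.92% and 2.06% by the Wilson interval. With scores of at least 2.5 in both lists, 293T in K562 gave 0.730%, 293T in LNCap 1.46%, K562 in 293T 0.870% and LNCap in K562 11.7%, against 1.76%, 2.12%, 2.03% and 10.5%. Above the list medians K562 in LNCap gave 11.9% and LNCap in K562 11%, against 13.3% and 12.2%. Both filters thin the other list too. Without the width limit, K562 in 293T gave 58.1% and LNCap in 293T 56.3%, against 28.5% and 28.4%, because 12 garbled 293T lines then enter with ranges wider than 5000 bp. The other 82 shares and 47 of 54 ratios stayed inside their first intervals. Keeping infinite scores could not change the 3 median scores, as no member had one. No paired analysis was possible because each line has 1 list.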
